A study of Mus musculus with 6 samples.

Results

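Liver transcripts of SMP30/GNL knockout mice that received ascorbic acid (AA, vitamin C) were compared with those of wild-type mice. The comparison took the 2 AA-supplemented knockout arrays and the 2 wild-type arrays by their labels, 4 of the 6 arrays of the study. All 19550 genes with a probe set naming a single gene were members, each by its probe set of highest mean, and the 14662 genes above a low-signal limit were tested. The remaining 2 arrays, of AA-deficient knockouts, entered the estimate of the spread and are given beside the results.

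All mice were males of the C57BL/6NCrSlc background, and all ate the AA-deficient diet CL-2. The sources used here do not state their age. The supplemented knockouts drank water holding AA together with EDTA, in an amount that keeps tissue AA normal. Wild-type mice drank water without the vitamin and make their own AA, and the AA-deficient knockouts are labelled as having an AA-deficient supply. Genotype and AA in the water therefore differed together between supplemented knockouts and wild type and cannot be told apart here. The same holds for EDTA if the other groups did not receive it, which the sources used here do not give. They also do not state which part of the gene was deleted, or whether the arrays of one group stand for different animals. The p-values thus reflect the scatter of these samples alone, and that scatter may be technical.

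SMP30, also called regucalcin, is encoded by Rgn. In most mammals the liver or kidney makes AA from glucose through glucuronate and gulonate. Regucalcin is the gluconolactonase that closes the ring of gulonate to gulonolactone, and gulonolactone oxidase, encoded by Gulo, then forms AA. Regucalcin was also described as a calcium-binding protein of hepatocytes. AA itself serves as an electron donor and as a cofactor of iron-dependent dioxygenases such as the collagen prolyl hydroxylases and the TET enzymes. Knockouts given AA lack the protein while their AA supply comes from the water.

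RNA of whole liver was labelled with biotin and measured on mouse Gene 1.0 ST arrays. Values are the deposited log values, read here as log10, so a difference of 0.30 corresponds to 2-fold, and n is 2 arrays in each group. Differences are supplemented knockouts minus wild type with their standard error (SE). Hepatocyte markers averaged 2.10 and 2.04 on the wild-type arrays and 2.05 and 2.20 on the AA-supplemented arrays, against 0.66 to 0.67 over all genes tested. Replicate differences had an SD over genes of 0.0896 in wild type and 0.113 with AA supplementation. In whole tissue, fewer cells of a type and less RNA per cell cannot be told apart.

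Rgn (Entrez 19733, probe set 10598863) spans 12.3 kb of the X chromosome (chrX:20549766-20562089, GRCm38.p6). It stood at 2.07 and 1.996 on the wild-type arrays, at 0.34 and 0.14 on the AA-supplemented arrays and at 0.23 and 0.30 on the AA-deficient arrays. Every knockout array lay far below both wild-type arrays, with no overlap. Rgn fell by 1.79 (SE 0.068, 95% interval -1.95 to -1.64, adjusted p = 8.11e-05 in limma), a 62.1-fold drop if the values are log10. Its value on AA-supplemented array 2 lay below the low-signal limit of 0.185, and values so low cannot be told from background. Its wild-type mean was at the 99.5 percentile of all genes and its AA-supplemented mean at the 32.0 percentile.

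Gulo (chr14:65986786-66009254) stood at 2.04 and 1.95 in wild type, 1.98 and 2.12 in AA-supplemented knockouts and 2.05 and 2.03 in AA-deficient knockouts. The groups overlapped, and the difference of 0.056 (SE 0.057, 95% interval -0.075 to 0.187, adjusted p = 0.786) was 0.124 without AA-supplemented array 1 and turned to -0.012 without their array 2. Ugdh, which makes glucuronate, differed by -0.017 (SE 0.052), and by 0.032 without AA-supplemented array 1. Ugp2, one step before it, differed by -0.011 (SE 0.048), and by 0.023 without AA-supplemented array 2 and 0.0047 without wild-type array 1.

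Rgn was the only gene to pass an adjusted p under 0.05 with limma: 1 gene fell (0.00682% of those tested) and 0 rose (0%). After centring each array on its median, 6 genes were higher and 2 lower. The smallest adjusted p after Rgn was 0.106. At an unadjusted p under 0.05, 994 genes were higher (6.78%) and 563 lower (3.84%), 10.6% of all genes tested. Both AA-supplemented arrays lay above both wild-type arrays for 2906 genes (19.8%) and below them for 2750 (18.8%). More than 2-fold differences were seen for 53 genes upward (0.361%) and 10 downward (0.0682%).

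The count depended on how the spread of each gene was moderated. When the prior spread was allowed to vary with the mean value (eBayes with a trend), 84 genes were higher (0.573%) and 10 lower (0.0682%). Without AA-supplemented array 1, 7 genes passed, namely Airn, Il1rn, Mir155, Rgn, Snord14e, Sult1e1 and Thbs1. The typical SE of a difference was 0.048. The median difference over all genes tested was -0.0017, with 7197 genes above 0 and 7465 below.

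**Figure D1:**
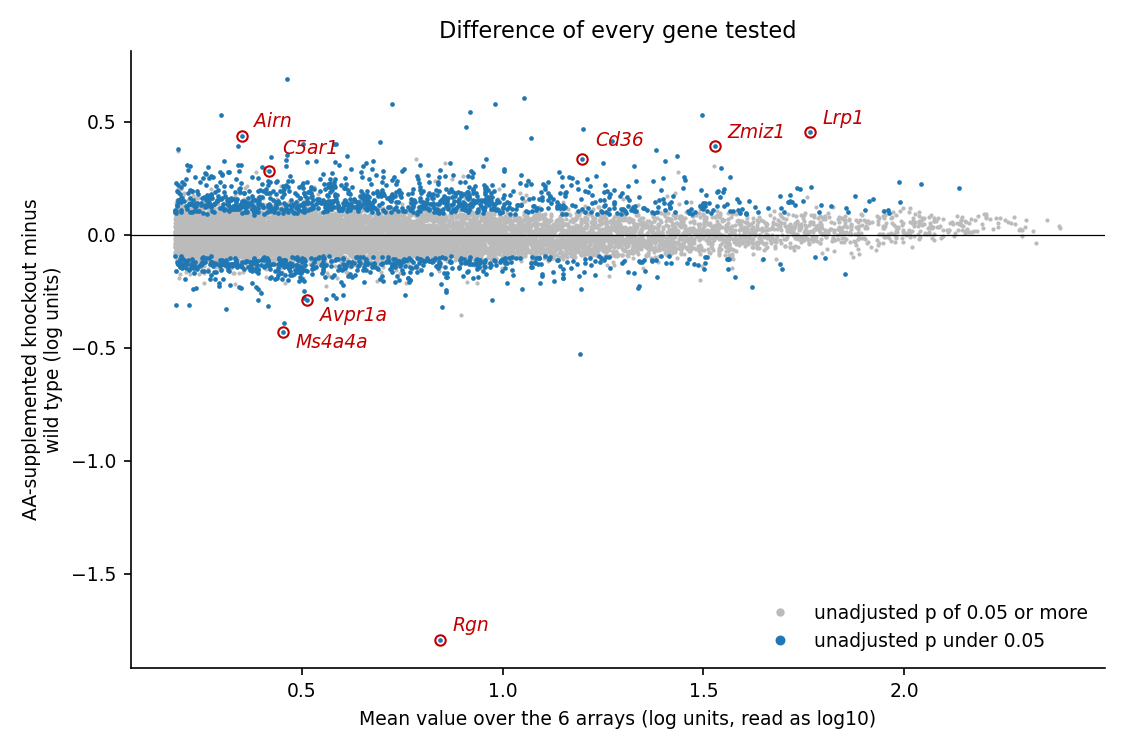
Difference between AA-supplemented knockouts and wild type (vertical axis, log units) against the mean over the 6 arrays (horizontal axis, log units read as log10) for every gene tested, with genes of unadjusted p under 0.05 in blue. Rgn lies alone at -1.79, and all other genes lie between -0.53 and 0.69.

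The 19 genes of smallest p after Rgn, leaving out small RNAs, receptor families and predicted genes, are described next although none passed (adjusted p from 0.109 to 0.165). Of these, 16 were higher and 3 lower in AA-supplemented knockouts, by 0.26 to 0.45. Their groups did not overlap, as the choice by smallest p favours. With the trend, 18 of the 19 passed, all but Psph.

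Kmt2d, a histone H3 lysine 4 methyltransferase (chr15:98831669-98874077), stood at 0.35 and 0.47 in wild type and 0.81 and 0.83 in AA-supplemented knockouts (difference 0.41, SE 0.051, adjusted p = 0.109). Its relative Kmt2a (chr9:44803355-44881352) stood at 0.33 and 0.38 in wild type and 0.65 and 0.68 in AA-supplemented knockouts (difference 0.31, SE 0.046). For both, each AA-supplemented array lay above both wild-type arrays, and the AA-deficient arrays were at 0.83 and 0.88 for Kmt2d and 0.71 and 0.80 for Kmt2a. Zmiz1, a transcriptional coactivator related to the PIAS proteins, had 1.26 and 1.30 in wild type against 1.64 and 1.70 (difference 0.39, SE 0.044). Averaged over all probe sets of each gene, the differences were smaller, at 0.294 for Zmiz1 and 0.335 for Kmt2d. The kinase gene Hipk2, which acts on transcription factors, had 0.97 and 1.07 against 1.30 and 1.38 (difference 0.32, SE 0.049). Ubn2, of the ubinuclein family of histone chaperone subunits, had 0.39 and 0.51 against 0.76 and 0.74 (difference 0.30, SE 0.050). In each of these genes the 2 arrays of a group lay closer to each other than to the other group.

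Airn, the imprinted antisense RNA that overlaps Igf2r by 28.4 kb, stood at 0.031 and 0.003 in wild type, close to the bottom of the scale. It stood at 0.38 and 0.53 in AA-supplemented knockouts and 0.57 and 0.59 in AA-deficient knockouts (supplemented difference 0.44, SE 0.056, adjusted p = 0.109). Igf2r, the mannose 6-phosphate receptor named for this overlap after its values were seen, had 0.57 and 0.69 in wild type and 0.89 and 0.94 in AA-supplemented knockouts (difference 0.29, SE 0.053). Signals of the overlapping pair were not separated here. Both wild-type values of Airn lay below the limit of 0.185, so they cannot be told from background, and the gene entered the test through its knockout values (adjusted p = 0.289 with no filter on dim genes).

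Among receptors and surface proteins, Lrp1, an endocytic receptor of lipoprotein remnants, had the largest difference of the 19. It stood at 1.36 and 1.55 in wild type and 1.84 and 1.97 in AA-supplemented knockouts (difference 0.45, SE 0.069, adjusted p = 0.135). Cd36, the fatty acid translocase, had 0.84 and 0.95 in wild type, 1.27 and 1.19 in AA-supplemented knockouts and 1.47 and 1.48 in AA-deficient knockouts (supplemented difference 0.34, SE 0.052). The wild-type arrays were thus lowest for both genes, and for Cd36 the AA-deficient arrays were highest. Notch2, a receptor of Notch signalling, had 0.69 and 0.77 against 1.001 and 1.004 (difference 0.27, SE 0.045). The teneurin gene Tenm3 had 0.029 and 0.18 against 0.48 and 0.42 (difference 0.34, SE 0.056, adjusted p = 0.339 with no filter on dim genes). Both wild-type values of Tenm3 lay below the limit too and cannot be told from background.

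Avpr1a, the hepatocyte receptor through which vasopressin raises calcium (chr10:122448499-122453453), was lower in AA-supplemented knockouts. It stood at 0.83 and 0.82 in wild type, 0.51 and 0.56 in AA-supplemented knockouts and 0.16 and 0.19 in AA-deficient knockouts. The 3 groups did not overlap, and the AA-supplemented arrays lay between the others (difference from wild type -0.29, SE 0.041, adjusted p = 0.135). C5ar1, the receptor of the complement fragment C5a (chr7:16246743-16259540), stood at 0.37 and 0.40 in wild type, 0.64 and 0.70 in AA-supplemented knockouts and 0.21 and 0.19 in AA-deficient knockouts. Here the AA-supplemented arrays were highest and the AA-deficient arrays lowest (difference from wild type 0.28, SE 0.042, adjusted p = 0.135).

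Of the 19 genes, these 2 also passed the test of AA-deficient against AA-supplemented knockouts, which 30 of all genes passed (0.205%). That test uses the same AA-supplemented arrays. Avpr1a differed there by -0.36 (adjusted p = 0.0302) and C5ar1 by -0.47 (adjusted p = 0.0193). Neither call held with no filter on dim genes, where 0 genes passed that test in limma (1550 at an unadjusted p under 0.05), and of the 6 fits that left out 1 array both passed only without AA-supplemented array 1. With limma 0 genes passed when AA-supplemented array 2 or either array of the wild type was left out (1227 to 1410 at an unadjusted p under 0.05), and 1 and 7 passed without AA-deficient arrays 1 and 2.

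The genes lower in AA-supplemented knockouts also included Ms4a4a, of a family of membrane-spanning proteins, and Psph, phosphoserine phosphatase of serine synthesis. Ms4a4a had 0.58 and 0.71 in wild type against 0.25 and 0.18, the last below the limit (difference -0.43, SE 0.054), with 0.53 and 0.47 on the AA-deficient arrays. Psph had 0.59 and 0.58 against 0.32 and 0.27 (difference -0.29, SE 0.044), and the AA-deficient arrays had 0.32 and 0.27 as well. In both genes the AA-supplemented arrays lay below both wild-type arrays.

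Hmox1, the heme oxygenase induced by oxidants and heme, had 0.69 and 0.73 in wild type and 0.97 and 0.98 in AA-supplemented knockouts, with 0.74 and 0.78 on the AA-deficient arrays (difference 0.26, SE 0.041). Prg4, which encodes the lubricating proteoglycan lubricin, had 1.21 and 1.30 against 1.61 and 1.55, with 1.36 and 1.40 on the AA-deficient arrays (difference 0.33, SE 0.049). Tacc2, of the centrosomal coiled-coil proteins, had 0.37 and 0.44 against 0.83 and 0.78, with 0.60 and 0.48 on the AA-deficient arrays (difference 0.40, SE 0.054). These 3 genes were highest in AA-supplemented knockouts, with the AA-deficient arrays between the other groups. The difference between the knockout groups did not pass for any of them (adjusted p from 0.119 for Hmox1 to 0.197 for Prg4). Dync1h1, the heavy chain of cytoplasmic dynein, and Rapgef2, an exchange factor for Rap GTPases, differed from wild type by 0.34 (SE 0.055) and 0.28 (SE 0.047).

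**Figure D2:**
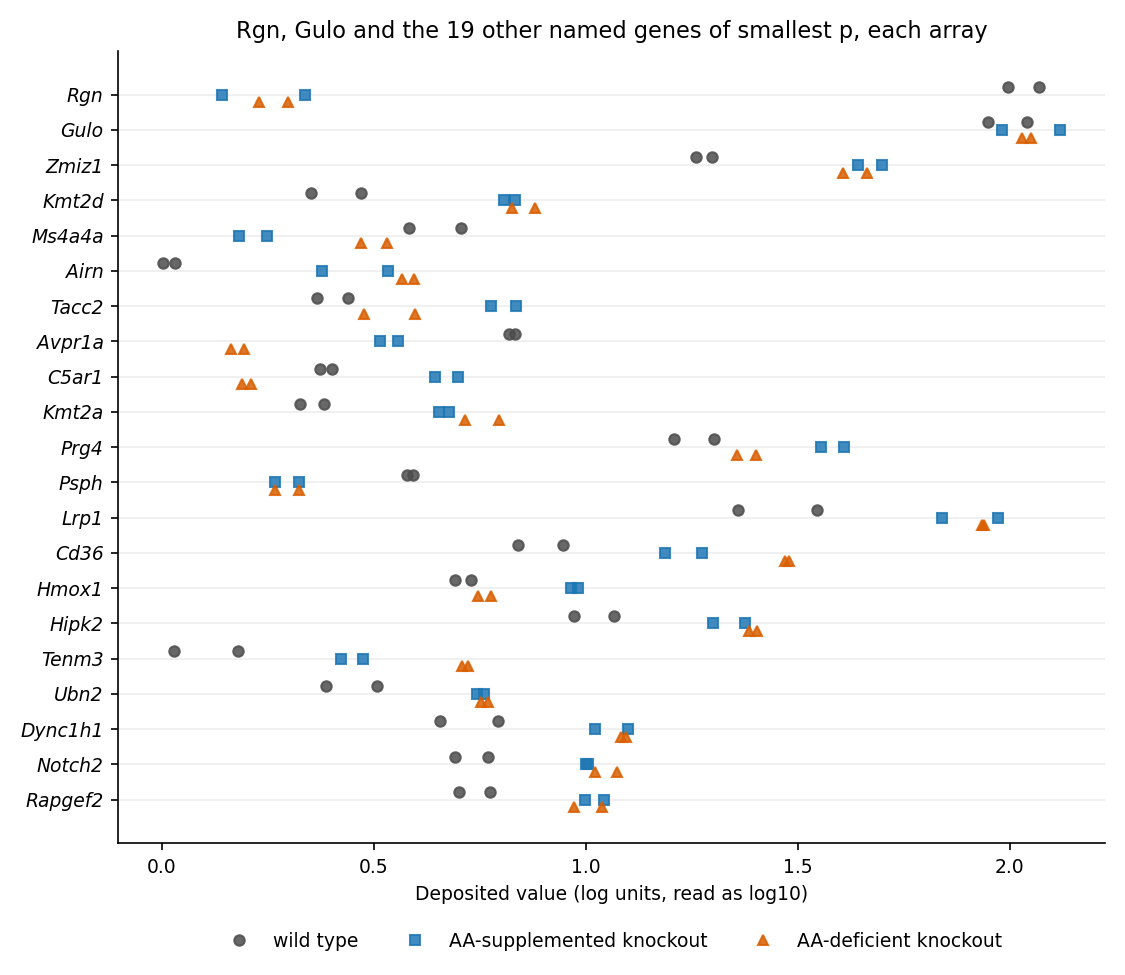
Deposited value (log units, read as log10) of Rgn, Gulo and the 19 genes of smallest p after Rgn, with 1 symbol for each array and the groups in different colours. Rgn has both wild-type arrays at or above 1.996 and every knockout array at or below 0.34, whereas Gulo has overlapping groups.

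To describe pathways, 45 gene lists with 785 distinct genes were used, of which 701 had a value and 638 were tested. The other 63 with a value lay below the limit, 29 were represented by shared probe sets alone, and 55 were not matched. Of the 638, Rgn passed and the other 637 did not. The lists below are therefore described by the number of members with an unadjusted p under 0.05, to be read against 6.78% higher and 3.84% lower over all genes, and by their median. Named members are those of smallest p unless stated. Outside this rule, and with earlier results of these data known, Hmgcs1, Srebf2, Insig1, Srebf1, Thrsp, Cidec, Ppara, Cyp7a1 and Slc23a1 were also named. A range beside a median gives its lowest and highest value when single arrays were left out, with the array named where the sign turned.

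Cholesterol synthesis turns acetyl-CoA into sterols through mevalonate, squalene and lanosterol. In AA-supplemented knockouts 18 of 19 measured members had lower means than in wild type, with a median difference of -0.120 against -0.0017 over all genes. At an unadjusted p under 0.05, 7 were lower and 0 higher. Below wild type on both arrays lay 11 of the 19, against 18.8% of all genes tested. Msmo1, the sterol methyl oxidase, stood at 0.98 and 0.86 in wild type, 0.68 and 0.66 in AA-supplemented knockouts and 1.06 and 0.90 in AA-deficient knockouts (supplemented difference -0.25, SE 0.063, adjusted p = 0.233). Cyp51, the lanosterol demethylase, had 0.85 and 0.80 in wild type, 0.66 and 0.57 in AA-supplemented knockouts and 0.82 and 0.69 in AA-deficient knockouts (supplemented difference -0.21, SE 0.056). For both, the AA-supplemented arrays were the lowest of the study.

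Idi1, the isopentenyl diphosphate isomerase, differed by -0.21 (SE 0.058), Sqle, squalene epoxidase, by -0.21 (SE 0.073, below the limit on both AA-supplemented arrays), and Lss, lanosterol synthase, by -0.17 (SE 0.048). They act before the steps of Cyp51 and Msmo1, and were chosen after their values were seen. The exception was Hmgcs1, the HMG-CoA synthase at the entry of the pathway, with a difference of 0.014 (SE 0.049), which was -0.024 without AA-supplemented array 1 and -0.0095 without wild-type array 1. The regulators in the list lay nearer to 0, with Srebf2 at -0.018 (SE 0.042) and Insig1 at -0.066 (SE 0.057), which turned to 0.0026 and 0.0099 without wild-type array 1.

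Wild-type arrays differed from each other in the same genes. The mean of the 19 genes was 1.02 and 0.95 on the wild-type arrays, 0.90 and 0.86 on the AA-supplemented arrays, and 1.11 and 1.02 on the AA-deficient arrays. The median difference was -0.049 without wild-type array 1 and -0.163 without wild-type array 2. Against wild type, the AA-deficient arrays had a median difference of 0.066 in this list, from the same wild-type arrays.

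**Figure D3:**
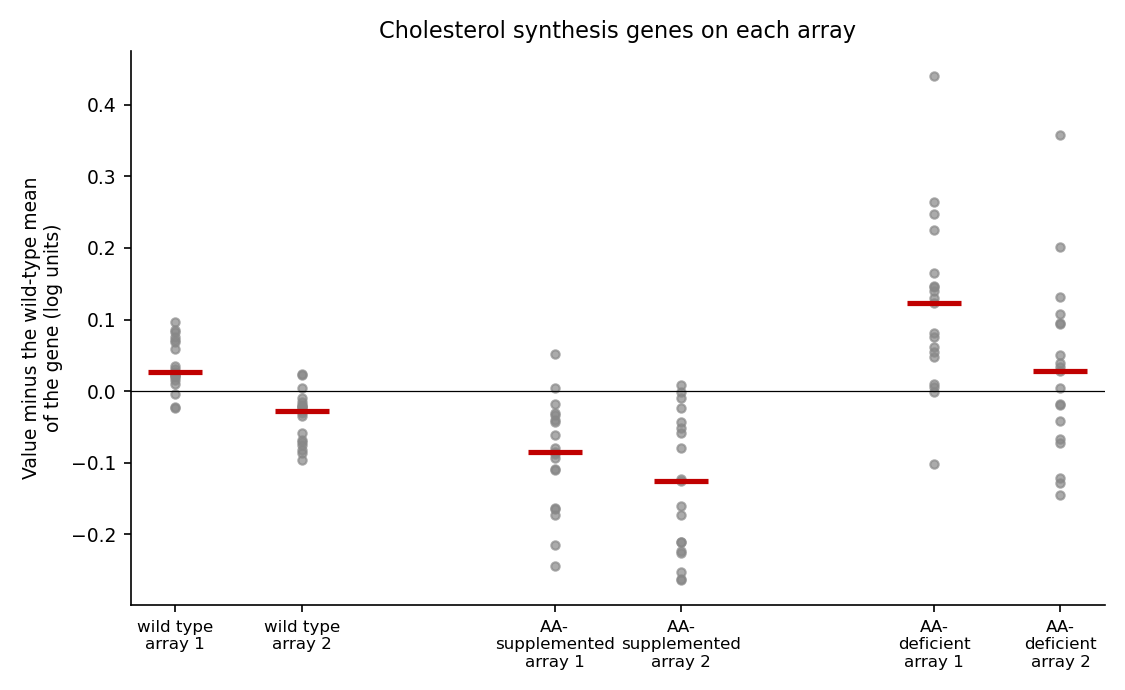
Value of each of the 19 cholesterol synthesis genes minus its wild-type mean (vertical axis, log units) on each of the 6 arrays, with the median as a red bar. Both AA-supplemented arrays have their median below 0, and the wild-type arrays mirror each other around 0 because their mean was subtracted.

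Genes of fatty acid and triglyceride synthesis had values in both directions. Of 22 members tested, 4 were higher and 2 lower at an unadjusted p under 0.05, with a median of 0.024 (0.0077 to 0.046). Acaca, acetyl-CoA carboxylase, stood at 0.88 and 0.94 in wild type and 1.14 and 1.13 in AA-supplemented knockouts (difference 0.23, SE 0.041, adjusted p = 0.186). Mlxipl, the carbohydrate response factor ChREBP, had 1.25 and 1.30 against 1.46 and 1.57 (difference 0.24, SE 0.050). Fasn, fatty acid synthase, chosen after its values were seen, had 0.996 and 1.07 against 1.25 and 1.26 (difference 0.22, SE 0.045). In these 3 genes every AA-supplemented array lay above both wild-type arrays, and the AA-deficient arrays were at 1.18 and 1.16, 1.60 and 1.55, and 1.51 and 1.45. Srebf1, the SREBP-1 factor, stood at 0.83 and 0.92 in wild type and 1.01 and 0.86 in AA-supplemented knockouts, with overlapping groups (difference 0.064, SE 0.071, and -0.011 without AA-supplemented array 1). Thrsp, the lipogenic Spot 14 gene, was lower at 1.29 and 1.36 against 1.23 and 1.10 (difference -0.16, SE 0.054).

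The start regions of these 3 lipogenic genes are shown because their values lay together above wild type. Each holds 250 bases before and 50 after a RefSeq start site in GRCm38.p6, on the strand of the gene, 5′ to 3′. Fasn lies on the minus strand (chr11:120824498-120824797), Acaca on the plus strand (chr11:84195188-84195487) and the upstream start site of Mlxipl on the plus strand (chr5:135089640-135089939). The Fasn and Acaca windows lie inside the spans of their genes (chr11:120805958-120825166 and chr11:84129635-84401651). The outer starts of these 2 spans are not covered by the windows. Capitals mark an E-box, CACGTG, which reads the same on both strands.
Fasn: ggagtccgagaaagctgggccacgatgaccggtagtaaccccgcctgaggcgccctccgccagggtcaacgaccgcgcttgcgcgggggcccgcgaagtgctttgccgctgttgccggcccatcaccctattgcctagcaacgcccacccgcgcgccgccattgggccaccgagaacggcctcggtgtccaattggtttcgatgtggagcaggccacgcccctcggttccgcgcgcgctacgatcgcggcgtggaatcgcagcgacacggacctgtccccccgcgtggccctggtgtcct
Acaca: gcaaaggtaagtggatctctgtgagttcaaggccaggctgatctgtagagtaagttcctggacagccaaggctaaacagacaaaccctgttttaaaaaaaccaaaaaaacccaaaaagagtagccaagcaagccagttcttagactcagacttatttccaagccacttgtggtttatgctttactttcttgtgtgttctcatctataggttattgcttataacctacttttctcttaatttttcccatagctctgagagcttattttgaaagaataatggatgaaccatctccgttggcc
Mlxipl: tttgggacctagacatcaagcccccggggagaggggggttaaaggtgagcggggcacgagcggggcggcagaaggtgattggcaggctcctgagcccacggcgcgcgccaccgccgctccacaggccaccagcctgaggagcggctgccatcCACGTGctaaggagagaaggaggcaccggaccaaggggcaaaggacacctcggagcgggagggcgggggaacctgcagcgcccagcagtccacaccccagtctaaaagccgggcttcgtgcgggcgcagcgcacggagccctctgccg

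The E-box was found in the Mlxipl window, with its first base at -98 from the start site, and these letters were not in the Fasn or Acaca windows. A downstream start site of Mlxipl (chr5:135106641-135106940) also held none. Of 32851 promoters of the same length, 7.15% held an E-box. The D-box TTATGTAA, found in 0.938% of promoters, and the STAT motif TTCNNNGAA, found in 8.3%, were searched on both strands and were in none of these windows.

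Genes of fatty acid uptake and lipid droplets had 4 of 17 members higher and 1 lower at an unadjusted p under 0.05, with a median of 0.013 (0.00028 to 0.053). Beside Cd36, Pparg, the nuclear receptor of adipogenesis, stood at 0.63 and 0.59 in wild type, 0.81 and 0.85 in AA-supplemented knockouts and 1.05 and 1.10 in AA-deficient knockouts (supplemented difference 0.22, SE 0.043, adjusted p = 0.190). Lpl, lipoprotein lipase, chosen after its values were seen, had 0.59 and 0.78, 1.002 and 1.22, and 1.35 and 1.48 in the same order (supplemented difference 0.43, SE 0.090, adjusted p = 0.190). For both genes the AA-supplemented arrays lay between wild type and AA-deficient knockouts without overlap. Cidec, a lipid droplet protein, lay between them in the opposite order, with 0.63 and 0.72, 0.48 and 0.51, and 0.21 and 0.20 (supplemented difference -0.18, SE 0.046).

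Fatty acid oxidation had 2 of 27 members higher and 1 lower at an unadjusted p under 0.05, with a median of 0.024 (-0.0025 without wild-type array 2, 0.049 without wild-type array 1). Vnn1, a pantetheinase regulated by PPAR alpha, differed by 0.22 (SE 0.067, adjusted p = 0.344) and Ehhadh, the bifunctional enzyme of peroxisomes, by 0.12 (SE 0.047). Ppara itself differed by 0.057 (SE 0.041). These shares were close to those of all genes.

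Bile acid genes had 5 of 21 members higher and 2 lower at an unadjusted p under 0.05, with a median of 0.018 (0.018 to 0.051, and -0.008 after quantile normalisation). Slc10a2, the sodium-dependent bile acid transporter, stood at 1.20 and 1.21 in wild type, 0.80 and 0.97 in AA-supplemented knockouts and 0.50 and 0.42 in AA-deficient knockouts. The groups did not overlap and the AA-supplemented arrays were intermediate (difference -0.32, SE 0.060, adjusted p = 0.186). Cyp7a1, which catalyses the rate-limiting step from cholesterol to bile acids, had the largest negative difference of all genes after Rgn. It stood at 1.71 and 1.01 in wild type and 0.79 and 0.87 in AA-supplemented knockouts, with 1.28 and 1.503 in AA-deficient knockouts (difference -0.53, SE 0.19, adjusted p = 0.400). The wild-type arrays differed from each other by more than the lower of them differed from the AA-supplemented arrays. Cyp8b1, the sterol 12-alpha-hydroxylase, differed by 0.17 (SE 0.052).

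In insulin signalling and gluconeogenesis 15 of 17 members had higher means, with a median of 0.091 (0.052 to 0.096 when single arrays were left out). At an unadjusted p under 0.05, 5 were higher and 0 lower. Above wild type on both arrays lay 10 of the 17, against 19.8% of all genes tested. Insr, the insulin receptor, stood at 1.29 and 1.33 in wild type and 1.44 and 1.47 in AA-supplemented knockouts (difference 0.15, SE 0.041, adjusted p = 0.309). Foxo1, the forkhead factor restrained by insulin, had 0.94 and 0.94 against 1.08 and 1.06 (difference 0.13, SE 0.042). In both, the wild-type arrays were lower without overlap. Against the same wild-type arrays, the AA-deficient arrays had a median difference of 0.109 over the insulin list. Among growth hormone and Stat5 genes 2 of 16 were higher and 1 lower at an unadjusted p under 0.05 (median 0.066, 0.037 to 0.078), led by the elongase gene Elovl3 at 0.14 (SE 0.049) and Jak2, the kinase of the growth hormone receptor, at 0.14 (SE 0.049).

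Calcium handling is shown because regucalcin was named for calcium. Of 17 genes tested, 4 were higher and 0 lower at an unadjusted p under 0.05, while the median was 0.003 (-0.0029 without AA-supplemented array 1, 0.014 without wild-type array 2, -0.010 after quantile normalisation). Itpr2, the main inositol trisphosphate receptor of hepatocytes, stood at 0.65 and 0.68 in wild type and 0.85 and 0.87 in AA-supplemented knockouts (difference 0.19, SE 0.041, adjusted p = 0.190). Atp2a2, the calcium pump SERCA2, had 1.65 and 1.65 against 1.80 and 1.78 (difference 0.14, SE 0.043, adjusted p = 0.338). For both genes the groups did not overlap, and the AA-deficient arrays had 0.86 and 0.90 for Itpr2 and 1.73 and 1.66 for Atp2a2.

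Acute phase genes, which hepatocytes transcribe in response to inflammatory cytokines, had higher means for 23 of 25 members, with a median of 0.074. At an unadjusted p under 0.05, 3 were higher and 0 lower. Orm2, an orosomucoid, stood at 1.25 and 1.35 in wild type, 1.66 and 1.69 in AA-supplemented knockouts and 1.07 and 1.28 in AA-deficient knockouts (supplemented difference 0.37, SE 0.071, adjusted p = 0.186). Saa3, a serum amyloid gene chosen after its values were seen, had 0.72 and 1.06, 1.17 and 1.76, and 0.35 and 0.83 in the same order (supplemented difference 0.58, SE 0.21). Il1rn, the interleukin 1 receptor antagonist, had 0.70 and 0.68, 0.79 and 1.17, and 0.59 and 0.60 (supplemented difference 0.29, SE 0.10).

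Array 2 of the AA-supplemented knockouts was the highest of the 6 arrays for each of these 3 genes. The median of the acute phase list was 0.156 without array 1 of the AA-supplemented knockouts and -0.013 without their array 2. It was 0.029 after quantile normalisation and 0.038 after cyclic loess. Of 11 neutrophil markers, 5 were tested and 6 had means below the limit. Those tested averaged 0.26 and 0.25 on the wild-type arrays and 0.26 and 0.34 on the AA-supplemented arrays. On the AA-deficient arrays they averaged 0.23 and 0.20. Among the markers not tested, Cxcr2 was higher and Ly6g lower on both AA-supplemented arrays than on both wild-type arrays. The part of neutrophils in the acute phase values was not tested.

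Chemokines and innate receptors had 3 of 20 members higher and 0 lower at an unadjusted p under 0.05, with a median of 0.087 (0.047 to 0.108). Beside C5ar1, the chemokine gene Ccl2 stood at 0.24 and 0.13 in wild type and 0.31 and 0.52 in AA-supplemented knockouts (difference 0.24, SE 0.075, adjusted p = 0.351), with 1 wild-type value below the limit of 0.185. Immediate early genes had 3 of 15 higher and 0 lower (median 0.076, 0.015 to 0.117). Egr1, a zinc finger factor induced within minutes of a stimulus, stood at 0.31 and 0.40 in wild type, 1.08 and 0.79 in AA-supplemented knockouts and 0.98 and 0.78 in AA-deficient knockouts (supplemented difference 0.58, SE 0.099, adjusted p = 0.167). All knockout arrays lay above both wild-type arrays for this gene. The interferon response, with 2 higher and 2 lower of 18, was divided. Its median of 0.002 was -0.001 after median centring and after quantile normalisation. It turned to -0.024 without AA-supplemented array 1, -0.033 without wild-type array 1 and -0.0070 without AA-deficient array 2, and was 0.051 without AA-supplemented array 2.

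Among Nrf2 targets and glutathione genes, 4 of 19 were higher and 2 lower at an unadjusted p under 0.05 (median 0.021, 0.0071 to 0.046). Hmox1 was described above. Srxn1, sulfiredoxin, stood at 1.10 and 1.26 in wild type and 0.82 and 0.96 in AA-supplemented knockouts, with 0.82 and 0.89 on the AA-deficient arrays (difference -0.29, SE 0.068, adjusted p = 0.218). Hmox1 and Srxn1 thus had differences of opposite sign. Peroxide and superoxide removal had 0 of 14 higher and 1 lower (median -0.026, -0.055 to 0.0055, above 0 only without wild-type array 1), with the peroxiredoxin gene Prdx4 at -0.16 (SE 0.051) and Prdx3 at -0.079 (SE 0.041).

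The unfolded protein response had 1 higher and 1 lower of 20 (median -0.016, -0.042 to 0.015, above 0 only without wild-type array 1). Herpud1, of endoplasmic reticulum degradation, differed by 0.15 (SE 0.049) and the chaperone gene Dnajb11 by -0.14 (SE 0.052). Heat shock chaperones had 2 higher and 1 lower of 12 (median 0.032, 0.010 to 0.063), led by Hspa8 at 0.21 (SE 0.058) and Hspe1 at -0.13 (SE 0.045). Cytochromes P450 of families 1 to 3 had 1 higher and 1 lower of 23 (median 0.043, 0.020 to 0.067), with Cyp2b10, a target of the receptor CAR, at -0.29 (SE 0.11) and Cyp3a44 at 0.12 (SE 0.049). Each of these lists held at most 2 such members in either direction.

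Clock genes had 2 of 18 higher and 1 lower at an unadjusted p under 0.05 (median 0.038, 0.0078 to 0.062). Rora, an activator of the clock, stood at 1.08 and 1.06 in wild type and 1.22 and 1.23 in AA-supplemented knockouts (difference 0.16, SE 0.039, adjusted p = 0.229). Nr1d1, the opposing repressor REV-ERB alpha, had 1.49 and 1.64 against 1.74 and 1.80 (difference 0.20, SE 0.062). Both were without overlap above wild type. Glucocorticoid response genes had 0 of 14 higher and 2 lower (median 0.044, and -0.026 without AA-supplemented array 2). Fkbp5, a co-chaperone of steroid receptors, stood at 1.16 and 1.22 in wild type, 1.06 and 0.96 in AA-supplemented knockouts and 0.46 and 0.55 in AA-deficient knockouts (supplemented difference -0.18, SE 0.054, adjusted p = 0.324).

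AA transport and recycling had 1 of 9 genes higher and 0 lower at an unadjusted p under 0.05 (median 0.016, -0.0038 without AA-supplemented array 2, -0.017 without wild-type array 2, 0.035 without wild-type array 1, -0.001 after cyclic loess). Slc23a2, the sodium-dependent AA transporter SVCT2, stood at 0.77 and 0.78 in wild type, 0.91 and 0.94 in AA-supplemented knockouts and 1.11 and 1.13 in AA-deficient knockouts. Its groups did not overlap, and the supplemented arrays were intermediate (difference 0.16, SE 0.040, adjusted p = 0.244). Slc23a1, the SVCT1 transporter, had 1.43 and 1.41 in wild type and 1.45 and 1.44 in AA-supplemented knockouts (difference 0.028, SE 0.040). The glucose transporter Slc2a1, which also carries dehydroascorbate, differed by -0.053 (SE 0.042).

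AA-dependent dioxygenases had 3 of 15 higher and 0 lower at an unadjusted p under 0.05 (median 0.022, 0.011 to 0.035). Tet3 and Tet2, which oxidise methylcytosine in DNA, differed by 0.13 (SE 0.039, adjusted p = 0.324) and 0.19 (SE 0.062, adjusted p = 0.351). Tet3 stood at 0.53 and 0.53 in wild type and 0.65 and 0.67 in AA-supplemented knockouts, and Tet2 at 0.25 and 0.39 against 0.52 and 0.51. Collagen and matrix genes had 2 of 17 higher and 0 lower (median 0.042, -0.012 without AA-supplemented array 2 and 0.090 without their array 1), with fibronectin, Fn1, at 0.23 (SE 0.063) and Col18a1 at 0.12 (SE 0.039). Targets of the hypoxia-inducible factors had 2 of 13 higher and 1 lower (median 0.013, 0.012 to 0.022), with Bnip3, of mitophagy, at -0.13 (SE 0.044) and Vegfa at 0.12 (SE 0.040). Iron and metallothionein genes had 1 of 18 higher and 0 lower (median 0.037, 0.0088 to 0.037), with the ferrireductase gene Steap3 at 0.099 (SE 0.042).

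Cell cycle genes had 0 of 16 tested members higher and 1 lower at an unadjusted p under 0.05 (median -0.023, -0.037 to -0.012), with 7 further members below the limit. Pcna, the sliding clamp of DNA replication, stood at 1.36 and 1.27 in wild type and 1.13 and 1.02 in AA-supplemented knockouts (difference -0.24, SE 0.054, adjusted p = 0.199). Its groups did not overlap, and the AA-deficient arrays were at 1.18 and 1.23. Pcna lies on chr2, but its probe set 10461391 is numbered near that of Ms4a4a on chr19 (10461587). The probe set of Il1rn on chr2 is 10469816. Which locus the Pcna probe set measured was not tested. Of 13 p53 and senescence genes, 0 had an unadjusted p under 0.05 in either direction with limma, 0 passed, and the median was -0.025 (-0.034 to -0.013). Sesn1, a p53 target, was at -0.13 (SE 0.061).

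Genes of the cytosolic ribosome had lower means for 16 of 19 members (median -0.034, -0.067 to -0.016), with 2 lower and 0 higher at an unadjusted p under 0.05. Rpl5 had 1.52 and 1.59 in wild type against 1.43 and 1.42 (difference -0.13, SE 0.043), and Rpl7 differed by -0.11 (SE 0.040). Subunits of the respiratory chain had lower means for 15 of 24 members (median -0.026, -0.045 to -0.0080), with 1 higher and 0 lower at an unadjusted p under 0.05. Nuclear long noncoding RNAs had 3 of 5 higher and 0 lower (median 0.161, 0.085 to 0.238). Beside Airn, Malat1, of nuclear speckles, stood at 0.91 and 1.33 in wild type and 1.58 and 1.73 in AA-supplemented knockouts, with 1.65 and 1.77 on the AA-deficient arrays (supplemented difference 0.53, SE 0.12, adjusted p = 0.214). Its wild-type arrays differed from each other by more than 2-fold.

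**Figure D4:**
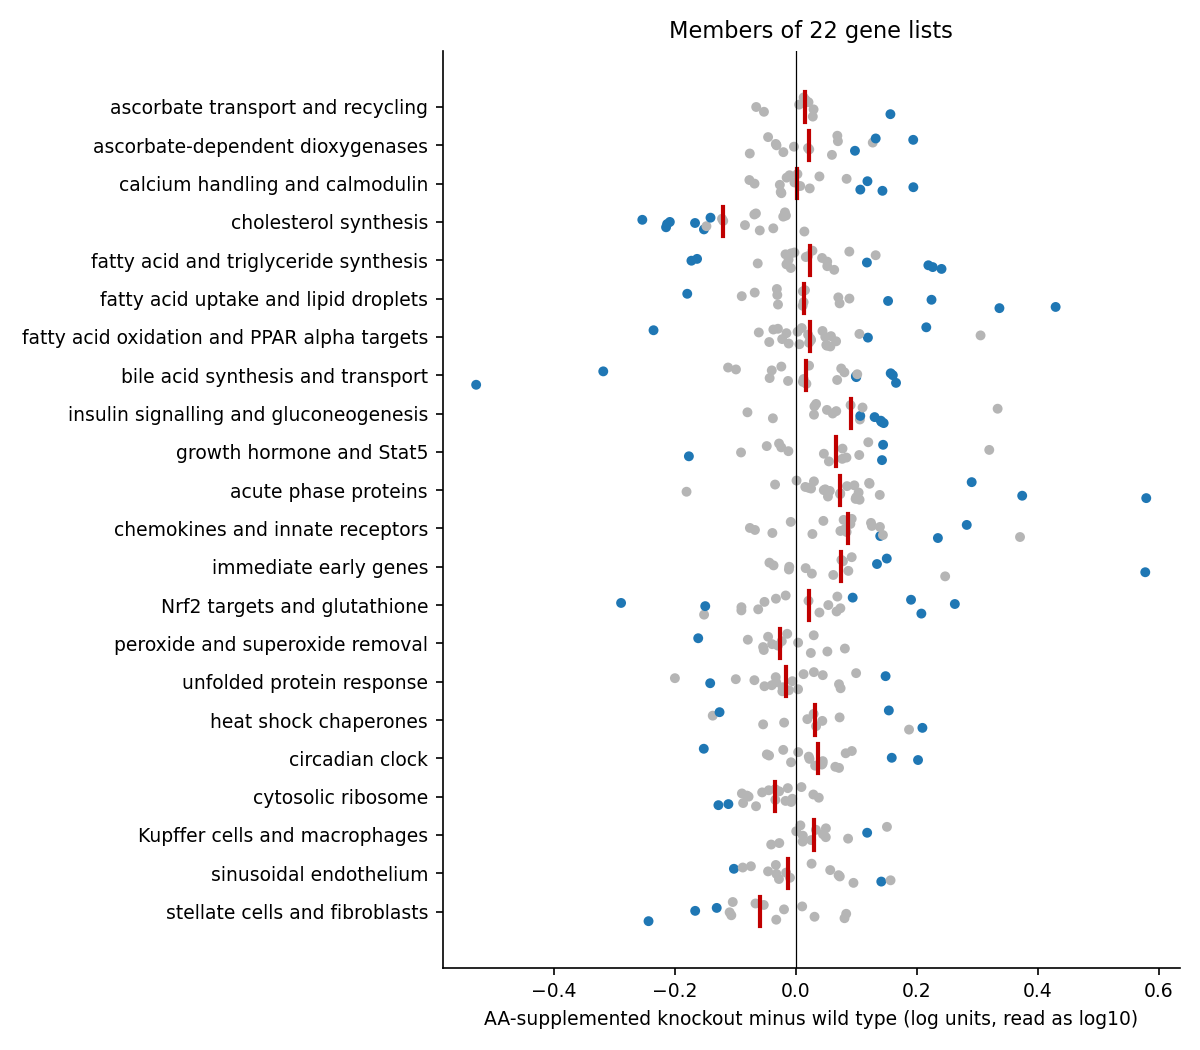
Difference of each tested member of 22 gene lists (horizontal axis, AA-supplemented knockout minus wild type, log units read as log10), 1 row for each list, with members of unadjusted p under 0.05 in blue and the median as a red bar. Cholesterol synthesis has the lowest median of these lists at -0.120 and insulin signalling the highest at 0.091.

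Markers of other liver cells are given because whole tissue was measured. Kupffer cell and macrophage markers had 1 of 14 higher and 0 lower at an unadjusted p under 0.05 (median 0.029). Their mean was 0.91 and 0.94 in wild type and 1.01 and 0.92 in AA-supplemented knockouts, and the median turned to -0.027 without AA-supplemented array 1 and was 0.102 without their array 2. Sinusoidal endothelium had 1 higher and 1 lower of 16 (median -0.013, -0.036 to 0.023, above 0 only without AA-supplemented array 2). Stellate cell and fibroblast markers had 0 higher and 3 lower of 14 (median -0.060, -0.117 without wild-type array 2 and -0.015 without wild-type array 1), with means of 0.74 and 0.69 in wild type and 0.64 and 0.68 in AA-supplemented knockouts.

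The stellate genes of smallest p were Lum, lumican, at -0.17 (SE 0.043, adjusted p = 0.256) and Lrat, which stores retinol as esters, at -0.24 (SE 0.075). Lrat stood at 0.97 and 0.93 in wild type and 0.58 and 0.83 in AA-supplemented knockouts. Markers of T, B and NK cells averaged 0.27 and 0.23 in wild type and 0.26 and 0.24 in AA-supplemented knockouts, with 8 of 16 measured members below the limit for testing. Hepatocyte markers had higher means for 11 of 12 (median 0.044), and the median turned to -0.032 without AA-supplemented array 2 and -0.0034 without wild-type array 2, and was 0.134 without AA-supplemented array 1. Their part in the other lists was not tested.

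The genomic span of a gene, introns included, moved with the sign of the differences. Genes with a known span were divided into 5 equal groups of 2924. In the longest, from 63.3 kb up, 451 genes were higher (15.4%) and 44 lower (1.505%) at an unadjusted p under 0.05, with a median of 0.026. In the shortest, up to 5.88 kb, 129 were higher (4.41%) and 170 lower (5.81%), with a median of -0.011. The medians of the groups between were -0.017, -0.011 and 0.0049 from shorter to longer.

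The longest group held 46 of the genes that were higher with the trend, and 12 of the 20 genes of smallest p named here, among them Zmiz1, Tenm3, Lrp1 and Cd36. The mean over the longest group was 0.60 and 0.62 on the wild-type arrays, 0.64 and 0.65 on the AA-supplemented arrays and 0.66 and 0.66 on the AA-deficient arrays. Without any one array the median of the longest group stayed above 0, whereas that of the shortest group turned to 0.017 without AA-supplemented array 1 and 0.0042 without wild-type array 1. The part of span in the values of single genes was not tested beyond removal of its trend, after which 1 gene was higher and 1 lower at an adjusted p under 0.05.

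**Figure D5:**
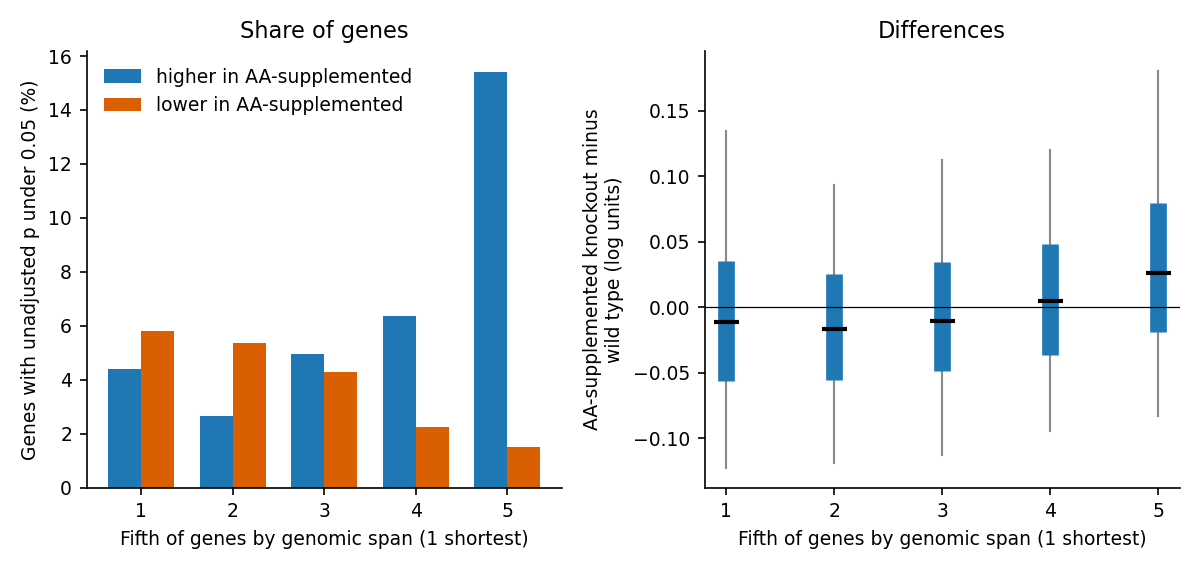
Left, percent of genes with an unadjusted p under 0.05 that were higher (blue) or lower (orange) in AA-supplemented knockouts, in 5 groups of 2924 genes from shortest to longest genomic span. Right, the differences in each group (log units), with the median as a black bar, the middle 50% as a box and the 5th to 95th percentiles as a line. The longest group has 15.4% higher and 1.505% lower.

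Genes flanking Rgn were examined because a targeted locus can carry flanking sequence of another strain. Of the 30 nearest genes with a value, 15 on each side, 17 were tested. With limma 0 passed, and 0 had an unadjusted p under 0.05 in either direction. Their differences ran from -0.11 to 0.087, with a median of -0.022.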

How the data were processed

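The authors deposited 1 table of log values with a column for each array, which are read here as log10. Their lowest was -0.58 and their highest 2.51, which would span 1213-fold on a log10 scale and only 8.48-fold on a log2 scale. Base, software and normalisation are not given in the sources used. Folds would shrink with a smaller base, and p-values would not move. Per the labels' protocols, liver RNA was extracted with ISOGEN and biotin-labelled with GeneChip WT Terminal Labeling reagents. No background measure was used, so low values cannot be told from background. Depth does not apply to arrays, and their number limits the precision.

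Of 34760 probe sets, 3995 were empty. Of the 30765 others, 21161 had 1 gene symbol in the platform annotation, 1150 several and 8454 none. Entrez identifiers of 21079 matched RefSeq (GRCm38.p6). Sequences and spans are from RefSeq. Genes whose mean reached the 25th percentile (0.185) entered limma (version 3.58.1, R 4.3.3; lmFit, contrasts.fit and eBayes), with all 6 arrays in 1 model (3 residual, 4.89 prior degrees of freedom). Two-sided p-values were adjusted by Benjamini-Hochberg over all genes tested. The fit was tested on simulated data.

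The members and lists were chosen with earlier results of these data known. Named were Rgn, Gulo, the genes of smallest p up to 20 (leaving out predicted genes, Olfr and Vmn receptors and small RNAs) and at most 2 list members of smallest p in lists described. Further genes were picked by hand. The replicate numbers were checked as pairs: deviations of same-numbered AA-supplemented and wild-type arrays correlated at -0.284, so they were not treated as pairs. Deviations of the AA-deficient arrays correlated at 0.358 with wild type and at -0.369 with AA-supplemented arrays. The groups thus shared differences between arrays, with the AA-supplemented numbers reversed, and the fit reported leaves these in the spread. Their source was not tested. Alternatives covered the filter, normalisation, moderation, probe set choice, gene span, a replicate block and leaving out each array.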

Additional observations from a re-analysis of the deposited data

Results flagged for a closer look

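The difference between AA-deficient and AA-supplemented knockouts passed limma's test over all genes for 30 genes, and 6 of these are described here. Avpr1a differed by -0.36 (adjusted p = 0.0302) and C5ar1 by -0.47 (adjusted p = 0.0193). Fkbp5 differed by -0.50 (adjusted p = 0.0263) and Nrg4, an ErbB receptor ligand, by -0.72 (adjusted p = 0.0263). Hmgcs1 differed by 0.39 (adjusted p = 0.0405), with 0.77 and 0.81 in wild type, 0.84 and 0.77 in AA-supplemented knockouts and 1.23 and 1.15 in AA-deficient knockouts. Themis, known from T cell development, differed by 0.57 (adjusted p = 0.0328), having been 0.081 and -0.12 in wild type, 0.14 and 0.051 in AA-supplemented knockouts and 0.65 and 0.68 in AA-deficient knockouts. Its wild-type and AA-supplemented values overlapped and all lay below the limit of 0.185, so they cannot be told from background, and Themis entered the test through its AA-deficient values.

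None of these 6 calls held with no filter on dim genes, where 0 genes passed, or when AA-supplemented array 2 or either array of the wild type was left out. When 1 array was left out, all 6 passed without AA-supplemented array 1, and Fkbp5 also passed without AA-deficient array 2.

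For 5 other genes named in this report both AA-supplemented arrays lay on one side of both wild-type arrays. Both AA-deficient arrays lay on the opposite side, without passing the test between the knockout groups. How many of all genes tested had this pattern was not counted, so whether it was more frequent among named genes cannot be told. Leaving the AA-deficient arrays aside, both AA-supplemented arrays lay above both wild-type arrays for 19.8% of all genes tested and below them for 18.8%. Those shares belong to a wider pattern than the one described here. The AA-supplemented arrays were the higher ones for Sult1e1, with a difference between the knockout groups of -0.80 (adjusted p = 0.144), Il1rn, with -0.38 (adjusted p = 0.239), and Slc11a2, the iron transporter DMT1, with -0.20 (adjusted p = 0.176). They were the lower ones for Lss, with 0.21 (adjusted p = 0.178), and Thrsp, with 0.28 (adjusted p = 0.117).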

How the results depend on the processing

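Rgn passed under all 18 alternatives. The number of genes past the threshold, 1 in the fit reported, was 8 after median centring (6 higher), 2 with only the 4 arrays compared, 94 with the trend, 116 with trend and robust moderation, and 2 after removal of the trend on gene span. It ranged from 1 to 7 when single arrays were left out, and 88 of the 94 genes called with the trend were also among the 116. With the replicate number as a block, 3 genes passed (2 higher). With the numbers of the AA-supplemented arrays crossed, an alternative chosen after seeing the data, 1 passed here and 75 between the knockout groups. At an unadjusted p under 0.05 in limma, that alternative gave 2592 genes here, against 1557 in the fit reported. The count between the knockout groups, 30, was 0 with no filter on dim genes, 51 with a filter at the 50th percentile, 12 after quantile normalisation, 57 after median centring, 11 after cyclic loess, 154 with the trend, 177 with trend and robust moderation, 4 with the replicate block, and 0 to 46 when single arrays were left out. The cause of these moves was not tested. Of 121 gene differences, 7 changed sign under some alternative: Gulo, from -0.012 (without AA-supplemented array 2) to 0.124 when single arrays were left out, Ugdh, from -0.065 to 0.032 (without AA-supplemented array 1), Ugp2, from -0.045 to 0.023, Hmgcs1, from -0.024 to 0.052, Srebf2, from -0.038 to 0.0026, Insig1, from -0.142 to 0.0099, and Srebf1, from -0.011 to 0.138. Without passing in the fit reported, 34 genes named passed under some alternative, 30 of them with the trend. Of 51 medians, 26 moved by more than the replicate spread under some alternative. With the filter at the 50th percentile, the lists of T, B and NK cells and of neutrophils had no member left and gave no median.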

Other observations

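Of 115 microRNA genes tested, 0 passed with limma. At an unadjusted p under 0.05, 10 of the 115 were higher in AA-supplemented knockouts and 1 lower, with a median of 0.012. Over all genes tested, 6.78% were higher and 3.84% lower. The array does not tell the arms of a hairpin apart. Mir155 and Mir505 are described because of their small p, and were chosen after their values were seen. Their mature forms are given from RefSeq (GRCm38.p6), 5′ to 3′, with the seed, bases 2 to 8, in capitals. The genes lie at chr16:84714140-84714204 on the plus strand for Mir155 and on the X chromosome for Mir505.
miR-155-5p: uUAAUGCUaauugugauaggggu
miR-155-3p: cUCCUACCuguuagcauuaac
miR-505-5p: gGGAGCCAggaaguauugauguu
miR-505-3p: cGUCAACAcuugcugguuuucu

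No seed is shared among these 4. Mir155, known from activated immune cells, stood at -0.044 and -0.092 in wild type, 0.38 and 0.54 in AA-supplemented knockouts and 0.50 and 0.52 in AA-deficient knockouts. Every knockout array lay above both wild-type arrays (supplemented difference 0.53, SE 0.056, adjusted p = 0.106, or 0.289 with no filter on dim genes). Both wild-type values of Mir155 lay below the limit of 0.185, so they cannot be told from background, and the gene entered the test through its knockout values. Mir505 stood at 0.53 and 0.68, 1.11 and 1.31, and 1.29 and 1.40 in the same order (supplemented difference 0.61, SE 0.079, adjusted p = 0.120).

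Sult1e1, the estrogen sulfotransferase, had the largest positive difference of all genes, 0.69 (SE 0.17, adjusted p = 0.225), and was chosen for it. It stood at 0.29 and 0.26 in wild type, 0.64 and 1.28 in AA-supplemented knockouts and 0.105 and 0.21 in AA-deficient knockouts. The AA-supplemented arrays were the highest, and differed from each other by more than 4-fold. The chemokine gene Ccl3 was higher on 1 array only, with 0.12 and 0.78 in AA-supplemented knockouts against 0.14 and 0.021 in wild type, and all but the highest lay below the limit.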
